A study of Mus musculus with 6 samples.

Results

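Stromal cells sorted directly from mouse lymph nodes (LN) were compared with mouse embryonic fibroblasts (MEF) grown in culture, using 1 Affymetrix whole-transcript array for each. These are 2 of the 6 arrays of the series. The LN stroma came from enzyme-digested nodes of adult C57BL/6JJcl mice and was gated as CD45-, CD31-, podoplanin+ and VCAM-1+, so that leukocytes and endothelium were to be left out and reticular fibroblasts kept. The MEF came from trypsin-digested C57BL/6JJcl embryos of stage E11.5-13.5 and were cultured in DMEM with fetal calf serum. The remaining 4 arrays held BLS4 and BLS12, 2 stromal cell lines derived from LN of BALB/cA mice, each unstimulated and after 2 days with 1 µg/ml of a goat antibody against the lymphotoxin β receptor (LTβR), used as an agonist; their levels are given beside those of named genes and enter no difference. Both of the compared cell preparations shared strain and platform, and differed in age, organ, sorting, enzyme treatment and culture, so that these factors cannot be told apart. The labels did not say how many animals or embryos were pooled. With 1 array a group there was no replicate and no test, and every difference below describes these arrays.

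Fibroblastic reticular cells form the conduit-bearing scaffold of lymph nodes and produce the chemokines and survival factors that place and maintain lymphocytes. Those of the T cell zone are known for Ccl19 and Il7, and those of the follicles, which include follicular dendritic cells (FDC), for Cxcl13. Signals through LTβR and NF-κB keep many of these genes on in the tissue, and cultured fibroblasts of embryonic origin are a usual reference for a mesenchymal cell without that organ-specific programme.

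An expression level here is log2 of the deposited intensity, and a difference is the LN stroma level minus the MEF level, so that 1 log2 unit is 2-fold. Of 19938 genes with an array entry of their own, 12613 were kept because the LN stroma or the MEF level was not under the median of its array over all entries (5.74 for MEF, 5.80 for LN stroma). Among these, 585 genes were at least 4-fold higher in LN stroma (4.64%) and 370 at least 4-fold lower (2.93%), and 10.2% and 12.1% were at least 2-fold higher and lower. The differences ran from -5.56 to 8.18. Between the unstimulated and antibody-treated arrays of a single line, the same count at 4-fold was 21 higher and 13 lower of 12004 genes in BLS4 (0.175% and 0.108%), and 31 and 25 of 11980 in BLS12 (0.259% and 0.209%). A level under the array median is close to background and has no detection call, so its fold is approximate: this held for the MEF level of 263 of the 585 higher genes (45.0%) and for the LN level of 183 of the 370 lower genes (49.5%). A gene kept through 1 of the 2 arrays alone cannot be 4-fold higher in the other, which limits the counts of gene lists below. Those counts are to be read beside the shares over all genes kept. Of 52 genes with several kept entries of which at least 1 was past 4-fold, 50 had entries that all pointed the same way, and 27 had all entries past 4-fold. As measured, the largest difference was that of Cxcl13 (8.18) and the lowest that of Sema3a (-5.56), but the lower level of each was under its array median; with all levels under the median set to it, Fosb (7.23) and Ddah1 (-4.81) stood beyond them (7.08 and -4.59). Both tails are visible in the scatter of the 2 arrays.

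**Figure D1:**
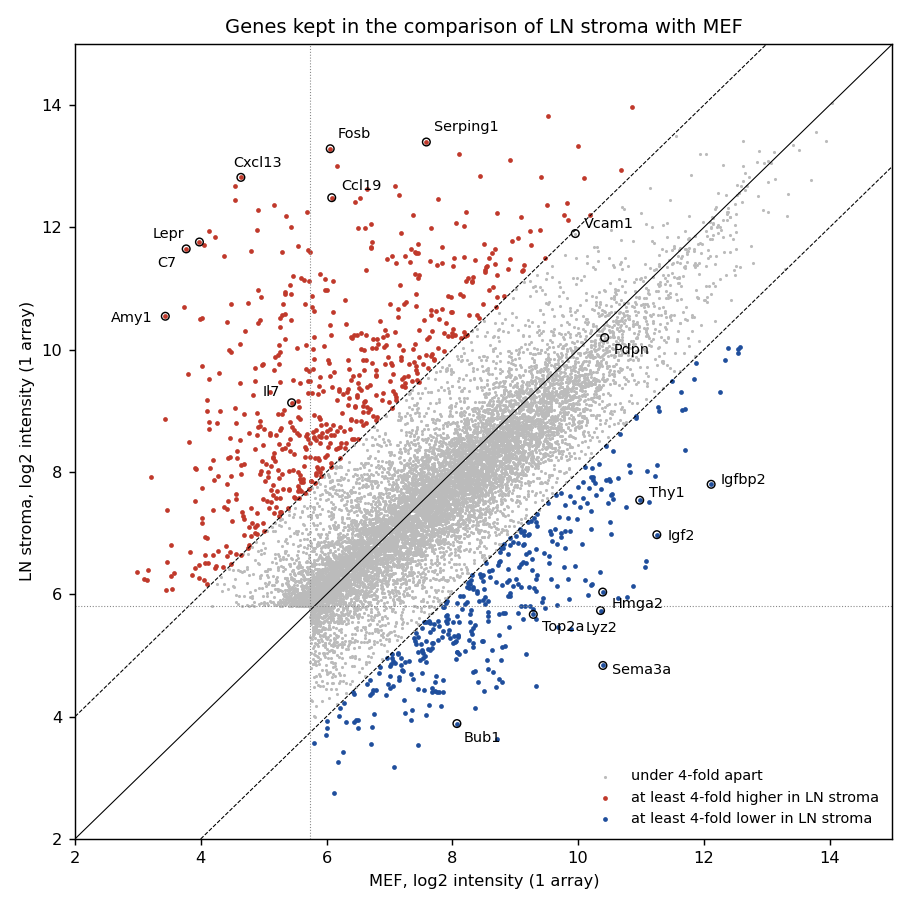
Log2 intensity in LN stroma (vertical axis) against log2 intensity in MEF (horizontal axis) for the 12613 genes kept, 1 array each; solid line, equal levels; dashed lines, 4-fold; dotted lines, array medians. The 585 genes in red lie at least 4-fold above the line of equality, with Cxcl13, Lepr and C7 near the left edge, and the 370 genes in blue lie below it.

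Transcripts of the sort gate were read first as a check of the label. Vcam1, an adhesion receptor of activated stroma, was at 11.90 in LN stroma and 9.96 in MEF, and Pdpn, which encodes podoplanin, was at 10.20 and 10.42. Ptprc, the gene of the pan-leukocyte antigen CD45, lay below the array median in both (5.70 and 5.26). Pecam1, the gene of the endothelial antigen CD31, was 1.71 log2 units higher in LN stroma (6.44 against 4.73), although CD31+ cells had been gated out. Transcripts of podoplanin and VCAM-1 thus lay well above the array median in MEF as well.

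The 4 reticular markers of LN stroma were all at least 4-fold higher than in MEF, and LN stroma held the highest of the 6 arrays for each. They were chosen with earlier results of these data known, so their levels are a description and no independent check of the preparation. Cxcl13, the B cell zone chemokine, was at 12.82 in LN stroma, 4.64 in MEF and 4.69 and 4.77 in BLS4 and 5.11 and 6.14 in BLS12 (unstimulated first, antibody-treated second, here and below). Ccl19, the T zone chemokine that binds CCR7, was at 12.49 against 6.08, with 6.04 and 6.25 in BLS4 and 6.04 and 6.39 in BLS12; its 5 entries gave differences between 6.40 and 7.12. Il7, the lymphocyte survival factor, was at 9.13 against 5.44, with 3.89 and 4.25 in BLS4 and 4.10 and 5.40 in BLS12. Lepr, the leptin receptor that marks perivascular and adipogenic reticular cells, was at 11.76 against 3.98, with 3.91 and 3.80 in BLS4 and 3.70 and 3.76 in BLS12. Only the fresh LN cells were high, and MEF and the lines lay below or close to the array medians for all 4 genes. Their differences were 8.18, 7.78, 6.40 and 3.69. As with every difference between whole preparations, fewer cells of a type and less RNA per cell cannot be told apart here.

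The promoters of Cxcl13 and Inmt are shown because these genes are markers of reticular cells with differences past 4-fold, also with MEF levels raised to the array median (7.08 and 6.71); Inmt, a methyltransferase of indolic amines also known from T zone reticular cells, was at 12.45 in LN stroma and 4.55 in MEF, with 4.27 and 4.35 in BLS4 and 4.13 and 3.98 in BLS12. The sequences are from RefSeq's annotation of GRCm38.p6, 5′ to 3′ along each gene's strand, from 170 bases before to 30 bases after the annotated start, and capitals mark the TATA box letters TATAAA on either strand.
Cxcl13 (chr5:95956769-95956968, + strand): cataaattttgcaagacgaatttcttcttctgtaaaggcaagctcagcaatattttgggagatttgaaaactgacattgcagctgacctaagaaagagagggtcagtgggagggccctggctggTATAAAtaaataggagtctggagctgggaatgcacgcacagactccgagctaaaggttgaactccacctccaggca
Inmt (chr6:55174961-55175160, - strand): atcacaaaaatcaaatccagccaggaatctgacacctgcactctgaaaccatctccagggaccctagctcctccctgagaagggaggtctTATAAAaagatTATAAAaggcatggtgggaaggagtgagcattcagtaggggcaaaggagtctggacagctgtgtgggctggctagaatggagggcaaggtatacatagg
Over windows from 250 bases before to 50 bases after the start, TATAAA was present in 83 of 547 promoters of genes at least 4-fold higher in LN stroma (15.2%), in 46 of 354 of those of genes at least 4-fold lower, and in 7.34% of the promoters of all genes kept. A loose NF-κB-like pattern, 3 G, then 5 of any base, then 2 C, was present in 61.1%, 66.1% and 67.5%. The matches describe letters in these windows and are no sites of binding.

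Chemokines were higher in LN stroma or level, with few exceptions. Of 25 inflammatory chemokine genes with an entry, 15 were kept, 10 were at least 4-fold higher in LN stroma and 0 at least 4-fold lower, and the median difference over all 25 was 0.65 (0.38 with levels under the array median set to it) against -0.01 over all genes with an entry. Cxcl10, a ligand of CXCR3, differed by 6.83 from a MEF level of 6.17, and Cxcl9, another such ligand, was at 9.01 against 5.33. The neutrophil attractants Cxcl1, Cxcl2 and Cxcl5 had differences of 5.98, 6.04 and 4.23, and the monocyte and eosinophil attractants Ccl2, Ccl7 and Ccl11 of 4.12, 3.85 and 6.16. For Ccl2, Ccl7 and Cxcl5 the fresh cells were not the highest array: antibody-treated BLS4 reached 11.87, 12.34 and 9.79, where LN stroma lay at 11.58, 12.03 and 8.79. Ccl5, Ccl8 and Ccl9 were also higher in antibody-treated BLS4 (7.80, 11.73 and 10.11) than in LN stroma (6.12, 5.81 and 9.38). Ccl3, a chemokine of macrophages, was in the other direction (4.38 against 6.30). Of the homeostatic chemokines besides Cxcl13 and Ccl19, Cxcl12, which retains haematopoietic cells through CXCR4, was 2.57 higher, while Cxcl14 (-0.31), Ccl25 (0.19) and Ccl28 (0.24) were under 2-fold apart.

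Cytokines of lymphoid stroma lay in the same direction for most members. Of 24 with an entry, 22 had a positive difference, with a median of 0.98 (0.28 with levels under the array median set to it); 15 were kept, of which 8 were at least 4-fold higher and 0 lower. Il6 was at 11.94 in LN stroma, 4.14 in MEF and 7.41 and 7.82 in BLS4 and 5.08 and 6.44 in BLS12. Il33, a nuclear alarmin of stromal cells, was at 11.61 against 4.80, with 5.16 and 5.47 in BLS4 and 7.60 and 7.75 in BLS12. Tnfsf13b, the B cell survival factor BAFF, was at 10.48 against 4.94, with 6.98 and 7.81 in BLS4 and 6.63 and 6.78 in BLS12. In these 3 genes LN stroma stood above all other arrays, and the lines stood above MEF. Flt3l, which sustains dendritic cells, differed by 4.02, Hgf by 3.79, Lif by 2.70 and Igf1 by 2.45. For Hgf the unstimulated BLS4 array (10.89) was higher than LN stroma (9.49). For Igf1 and Kitl the unstimulated BLS12 array (10.34 and 11.07) was higher than LN stroma (9.76 and 8.91). Smaller differences were seen for Kitl (1.76), Il34 (1.45) and Tnfsf11, the osteoclast factor RANKL of marginal reticular cells (0.99). Csf1 (0.08) and Clcf1 (-0.19) were close to equal, and Il15, Tslp, Lta and Csf3 lay below the array medians in both preparations.

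**Figure D2:**
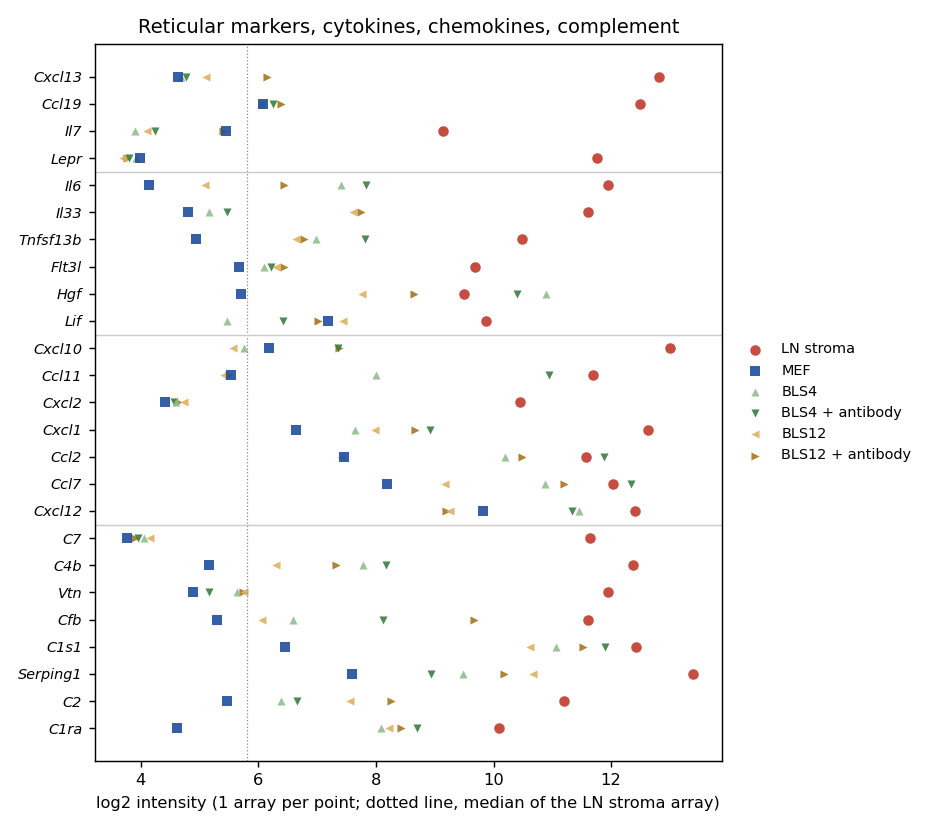
Log2 intensity of reticular markers, cytokines, chemokines and complement genes (vertical axis) in each of the 6 arrays, 1 array a point; the dotted line is the LN stroma median. LN stroma is the right-most point for Cxcl13, Ccl19, Il7 and Lepr, while antibody-treated BLS4 lies beyond it for Ccl2 and Ccl7.

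Cytokine receptors, listed without regard to the factors above, were also higher in LN stroma for most members. Of 21 cytokine receptors and decoy receptors with an entry, 19 were kept, 4 were at least 4-fold higher and 1 at least 4-fold lower, with a median of 1.04. Beside Lepr these were Lifr (3.40), the receptor subunit for leukaemia inhibitory factor, Ifngr1 (2.27), for interferon γ, and Il13ra1 (2.11), for interleukins 4 and 13. Tnfrsf11b, the decoy receptor osteoprotegerin, was the lower one (6.10 against 8.26). Ltbr itself was level, at 8.25 in LN stroma, 8.33 in MEF and 8.78 and 8.67 in BLS4 and 8.74 and 8.55 in BLS12.

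Markers of particular reticular subsets were present together in the LN array. Of 12 T zone reticular cell genes with an entry, 10 were kept, 7 were at least 4-fold higher and 0 lower (4.64% and 2.93% over all genes kept), with a median of 3.29. All 10 lay at or above the array median in LN stroma and 5 did in MEF, so the others were kept through LN stroma alone. Beside Inmt, Ccl19, Il7 and Tnfsf13b, Bst1, a surface ADP-ribosyl cyclase, differed by 5.10 and Des, the muscle-type intermediate filament desmin, by 2.91. Grem1, a BMP antagonist used to mark T zone stroma, was not higher (9.50 against 9.99), nor was Tnfsf15 (5.72 and 5.74). Among 13 FDC and marginal reticular cell genes, 11 were kept, 5 were at least 4-fold higher and 0 lower, with a median of 1.47. All 11 lay at or above the array median in LN stroma and 6 did in MEF. Bst1 stands in both lists and had the largest difference of this one. Cr2, the complement receptor of FDC and B cells, was at 8.06 in LN stroma, 3.91 in MEF and 4.10 and 4.13 in BLS4 and 3.87 and 4.14 in BLS12. Fcamr, the Fc receptor for IgM and IgA, was at 7.42 against 5.08. Clu, the extracellular chaperone clusterin, differed by 4.18, Cilp by 4.04, Mfge8, which bridges apoptotic cells to phagocytes, by 1.51 and Madcam1, an adhesion ligand for lymphocyte integrin, by 1.47. Fcgr2b and Fcer2a, Fc receptors of FDC, lay below the array medians in both. The Ccl21 family and Enpp2 lacked an entry that belonged to them alone and are not analysed here.

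Complement genes lay in both directions. Many secreted components and regulators were higher in LN stroma: of 22 genes with an entry, 19 were kept and 10 were at least 4-fold higher, with a median of 0.67, or 0.22 with levels under the array median set to it. C7, a component of the membrane attack complex, was at 11.65 against 3.77 in MEF, with 4.04 and 3.95 in BLS4 and 4.16 and 3.90 in BLS12. C4b, of the classical pathway, was at 12.37 against 5.16, with 7.78 and 8.18 in BLS4 and 6.30 and 7.32 in BLS12. Cfb, of the alternative pathway, was at 11.60 against 5.29, with 6.59 and 8.12 in BLS4 and 6.05 and 9.67 in BLS12. Fresh LN stroma was the highest array for all 3, the lines lay above MEF for C4b and Cfb, and all 5 other arrays lay below their medians for C7. The initiating proteases C1s1 and C1ra differed by 5.97 and 5.47, C2 by 5.74, and the inhibitors Serping1 and Vtn by 5.81 and 7.06. C4a (4.83) is a near-identical copy of C4b, and their signals may be mixed. In the other direction, 4 genes were at least 4-fold higher in MEF: Masp1 (-3.69), a protease of the lectin pathway, the receptor C3ar1 (-3.38), and C1qb (-2.49) and C1qc (-2.35), subunits that macrophages make.

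Genes of NF-κB signalling, interferon response and antigen presentation were also higher. Of 19 NF-κB pathway genes, all kept, 7 were at least 4-fold higher and 0 lower, with a median of 1.56. The feedback inhibitors Tnfaip3 (11.53 against 7.04), Nfkbia (12.83 against 8.43) and Nfkbiz (11.65 against 7.34) and the apoptosis inhibitors Birc3 (3.73) and Birc2 (2.95) led them. The subunits of the non-canonical dimer, Nfkb2 (1.30) and Relb (1.22), differed by over 2-fold but under 4-fold, and Rela was near level (0.45). Of 27 interferon-stimulated genes with an entry, 22 were kept, 12 were at least 4-fold higher and 0 lower, with a median of 1.98; Iigp1, a GTPase of cell-autonomous defence, differed by 5.32, and Irf1, Gbp3, Ifitm1 and Usp18 by 3.91, 3.89, 3.66 and 3.20. Ifit2 (-0.20), Irgm1 (-0.02) and Oas1a (-0.01) did not share in this. Of 15 antigen presentation genes with an entry, 14 were kept, 6 were at least 4-fold higher and all 15 differences were positive, with a median of 1.97. The class II genes H2-Ab1, H2-Aa and Cd74 stood at 8.74, 7.24 and 8.19 in LN stroma against 4.91, 4.01 and 4.19 in MEF, and their activator Ciita lay below the array medians in both. Immunoproteasome subunits Psmb8 and Psmb9 differed by 2.68 and 2.40, and B2m by 1.17.

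Immediate early and heat shock genes, which tissue digestion is known to induce, moved with these groups. Of 30 such genes, all kept, 21 were at least 4-fold higher in LN stroma and 0 lower, with a median of 3.17. Fosb was at 13.29 in LN stroma, 6.06 in MEF and 6.25 and 5.83 in BLS4 and 5.81 and 5.98 in BLS12. Fos was at 12.48 against 6.53, with 7.27 and 7.15 in BLS4 and 6.46 and 6.61 in BLS12. Nr4a1, an orphan nuclear receptor, was at 13.19 against 8.10, with 8.23 and 7.12 in BLS4 and 6.96 and 6.32 in BLS12. The freshly digested and sorted preparation was the highest array for these 3 genes. All 30 genes of the list also lay at or above the array median in MEF, and 29 or 30 in each line array. The heat shock gene Hspa1a (4.29) and the co-chaperone Dnajb1 (3.52) were higher in LN stroma too, while Hspa8 (0.23) and Hspb1 (0.11) were near level. The summed intensity of the 30 genes was 108628 in LN stroma, 19250 in MEF and 17033 to 19055 in the lines. Il6, Cxcl1, Cxcl2, Tnfaip3 and Nfkbia are themselves quickly inducible, and the part of the digestion and sort in their levels was not tested. Leaving out this list and the lists of lymphocyte, myeloid, endothelial, erythroid, pancreatic and salivary genes left 12518 genes, of which 534 were at least 4-fold higher and 365 lower.

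**Figure D3:**
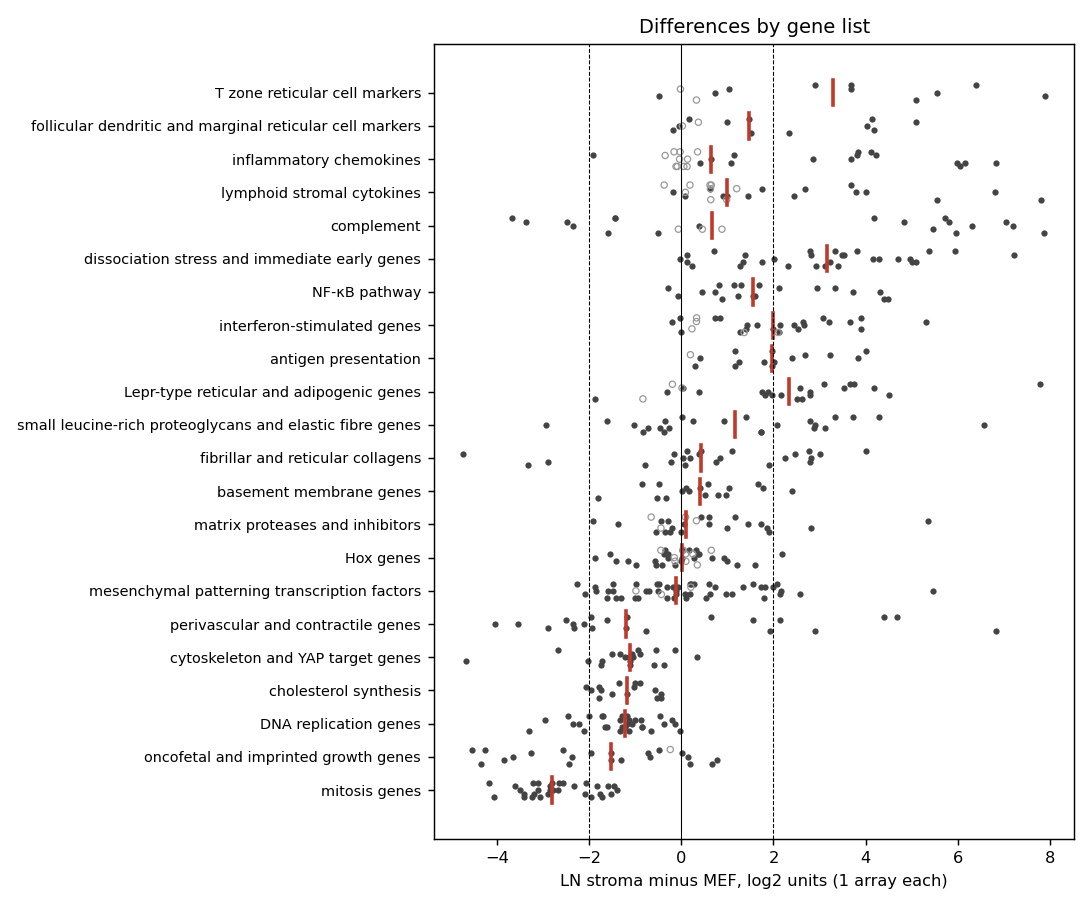
Difference of each gene (LN stroma minus MEF, log2 units, horizontal axis) by gene list; filled points, genes kept by the intensity filter; open points, genes with an entry that were not kept; red bars, median over both; dashed lines, 4-fold. T zone reticular, stress and Lepr-type genes lie mostly to the right, and all mitosis genes lie to the left of 0.

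Lepr was accompanied by genes of adipogenic and perivascular reticular cells. Of 24 with an entry, 21 were kept, 13 were at least 4-fold higher and 0 lower, with a median of 2.33. Zbtb16, a zinc finger regulator, differed by 4.50, and Ebf1 and Ebf3, transcription factors of stromal niche cells, by 3.52 and 2.79. Foxc1, another transcription factor of this list, was in the other direction (5.60 against 7.48), with its LN level under the array median. Lpl, lipoprotein lipase, was at 11.60 against 7.41 in MEF and between 11.18 and 12.30 in the lines, and Apoe at 13.96 against 10.86, with the lines between 8.17 and 9.84. Cebpd (3.75), Cebpb (2.63) and Cebpa (2.17) shared the direction; Pi16 (3.66) and Dpp4 (2.50), surface markers of adventitial fibroblasts, did so too. The differentiated fat cell genes did not: Adipoq lay below the array medians in both, Pparg was at 5.85 against 6.15, and Fabp4 differed by 0.39.

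The extracellular matrix differed by class. Basement membrane genes were close to level (17 genes, 1 at least 4-fold higher, 0 lower, median 0.41), with Lama4, a laminin chain, at 2.40. Of 23 collagens, 7 were at least 4-fold higher and 3 lower, with a median of 0.42. Col14a1, which associates with fibrils, differed by 4.01, Col15a1 by 3.01, and the beaded filament chains Col6a1, Col6a2 and Col6a3 by 2.46, 2.81 and 2.79. Col3a1, the main collagen of reticular fibres, was at 12.94 against 10.69, whereas Col1a1 (13.23 and 13.11) and Col1a2 (13.26 and 12.88) were near level. Col8a1 (-4.75), Col12a1 (-3.34) and Col11a1 (-2.91) were the ones higher in MEF.

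Among 24 small proteoglycans and elastic fibre genes, 9 were at least 4-fold higher and 1 lower, with a median of 1.16 (0.68 with levels under the array median set to it). Lum, the keratan sulfate proteoglycan lumican, was at 12.01 against 5.43, with 3.79 and 3.70 in BLS4 and 4.32 and 3.93 in BLS12. Dcn, decorin, was at 13.81 against 9.52, with 9.97 and 10.50 in BLS4 and 13.64 and 13.39 in BLS12. LN stroma was the highest array for both, and the lines lay below MEF for Lum and above it for Dcn. Lox, which cross-links collagen and elastin, was the one at least 4-fold lower (9.30 against 12.25). Of 14 matricellular proteins, 5 were higher, led by Tnxb (5.60), Sparcl1 (5.37) and Spon1 (4.93), and 2 lower, Tnc (-2.64) and Ccn2 (-2.59). Matrix proteases and their inhibitors had a median of 0.09 over 25 genes with an entry. Of the 21 kept, 2 were at least 4-fold higher and 0 lower. Mmp3, stromelysin, had the largest difference (12.06 against 6.71), and Mmp19 differed by 2.83. General fibroblast genes divided: Pdgfra (12.26 against 8.22), Fap (8.71 against 4.13) and Cd34 (11.20 against 8.33) were higher in LN stroma. Thy1, a glycoprotein much used to mark fibroblasts, was lower (7.54 against 10.98, with the lines between 6.67 and 8.25), as was S100a4 (7.84 against 10.08, with the lines between 10.75 and 11.47).

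Secreted modulators of BMP, TGF-β and Wnt signalling were mixed. Of 33 with an entry, 29 were kept, 8 were at least 4-fold higher and 1 lower, with a median of 0.14. Chrdl1, a BMP antagonist, differed by 5.92, Gdf10 by 4.97, Sfrp4 and Sfrp2, which bind Wnt proteins, by 4.50 and 2.96, and Bmp2 by 3.39. Inhba, the activin A subunit, was 24.5-fold lower in LN stroma (6.45 against 11.06, with 8.81 and 8.06 in BLS4 and 6.83 and 6.34 in BLS12). Enzymes and carriers of lipid signals were higher or level (23 genes, 8 at least 4-fold higher, 0 lower, median 1.27). Rarres2, the chemoattractant chemerin, differed by 5.58, Spns2, which exports sphingosine 1-phosphate, by 3.91, and Cyp7b1, which makes the oxysterol that guides B cells, by 3.28. Ch25h, which acts one step earlier, differed by 0.73.

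Perivascular and contractile genes, listed together, went apart. Of 21, all kept, 5 were at least 4-fold higher in LN stroma and 7 at least 4-fold lower, with a median of -1.20. The potassium channel subunits of mural cells, Abcc9 (12.18 against 5.35) and Kcnj8 (10.08 against 5.67), together with Rgs5 (11.30 against 6.62), Notch3 (2.14) and Des, were higher. The mural markers Cspg4 (-2.11) and Mcam (-2.90) and the smooth muscle genes Cnn1 (6.15 against 10.20), Actg2 (-3.56), Tagln (-2.51), Tpm1 (-2.35) and Cnn2 (-2.32) were lower. Acta2, smooth muscle actin, was at 11.32 against 13.30. Cytoskeletal genes and known targets of the mechanosensitive regulator YAP were lower by smaller steps: of 20, all kept, 3 were at least 4-fold and 13 at least 2-fold lower, 0 were at least 2-fold higher, and the median was -1.13. Ankrd1, one such target, was at 5.94 against 10.63, with 9.49 and 10.45 in BLS4 and 5.03 and 5.82 in BLS12, so that the lines parted from one another for this gene.

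Mitosis genes were lower in LN stroma without exception, and DNA replication genes were lower or near level. All 31 mitosis genes with an entry were kept, 23 were at least 4-fold lower in LN stroma, all 31 at least 2-fold lower (background 2.93% and 12.1%), and the median was -2.81. Bub1, a spindle checkpoint kinase, was at 3.88 in LN stroma, 8.07 in MEF and 5.87 and 6.15 in BLS4 and 7.95 and 6.57 in BLS12. Top2a, the topoisomerase that untangles chromosomes, was at 5.67 against 9.29, with 7.12 and 7.67 in BLS4 and 10.13 and 8.98 in BLS12. Mki67, the proliferation antigen Ki-67, was at 5.91 against 8.49, with 6.53 and 7.18 in BLS4 and 8.77 and 7.93 in BLS12. LN stroma was the lowest array for all 3, and unstimulated BLS12 was near or above MEF. At or above the array median lay 12 of the 31 genes in LN stroma, 31 in MEF and 27 to 31 in the lines. DNA replication genes pointed the same way with smaller sizes: all 31 differences were negative, 7 genes were at least 4-fold and 22 at least 2-fold lower, and the median was -1.22. Rrm2, the ribonucleotide reductase subunit, differed by -3.32 and Ccne1, cyclin E, by -2.97, whereas Pcna, the polymerase clamp, was near level (10.01 against 10.14), as was Rfc5 (8.43 against 8.47).

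The promoters of Cdk1, the mitotic kinase, Ccnb2, a cyclin that binds it, and Prc1, an organiser of the spindle midzone, are shown because mitosis genes are known to share short promoter elements. Capitals mark CCAAT, the letters bound by NF-Y, and TTTGAA, the core of the cell cycle genes homology region, on either strand, in the same 200-base windows of GRCm38.p6 as above.
Cdk1 (chr10:69352883-69353082, - strand): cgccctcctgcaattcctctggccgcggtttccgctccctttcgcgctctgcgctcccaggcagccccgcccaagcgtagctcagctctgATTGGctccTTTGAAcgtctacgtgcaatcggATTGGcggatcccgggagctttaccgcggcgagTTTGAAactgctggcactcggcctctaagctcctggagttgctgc
Ccnb2 (chr9:70421525-70421724, - strand): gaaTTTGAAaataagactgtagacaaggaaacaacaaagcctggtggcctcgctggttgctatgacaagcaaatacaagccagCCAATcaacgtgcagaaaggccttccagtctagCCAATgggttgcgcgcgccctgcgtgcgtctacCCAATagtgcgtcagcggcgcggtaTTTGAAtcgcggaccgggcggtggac
Prc1 (chr7:80294281-80294480, + strand): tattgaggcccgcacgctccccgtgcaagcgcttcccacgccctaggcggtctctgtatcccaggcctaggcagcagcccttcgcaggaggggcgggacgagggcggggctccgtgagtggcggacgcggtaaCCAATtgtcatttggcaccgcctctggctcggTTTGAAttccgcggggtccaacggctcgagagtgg
Their differences were -2.78 for Cdk1 (6.67 against 9.46, with 8.45 and 8.74 in BLS4 and 10.73 and 9.86 in BLS12), -2.90 for Ccnb2 (5.98 against 8.88, with 7.46 and 7.87 in BLS4 and 8.88 and 7.92 in BLS12) and -4.08 for Prc1 (4.42 against 8.50, with 6.55 and 7.20 in BLS4 and 8.83 and 7.51 in BLS12). In the 300-base windows, 23 of 28 promoters of the mitosis list held TTTGAA (82.1%) and 22 held CCAAT (78.6%). For the promoters of all genes kept these shares were 11.8% and 36.9%, for the DNA replication list 12.9% and 54.8%, and for genes at least 4-fold lower in LN stroma 25.4% and 43.8%. These shares describe the listed promoters, and a CCAAT and a TTTGAA can share at most 1 base.

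**Figure D4:**
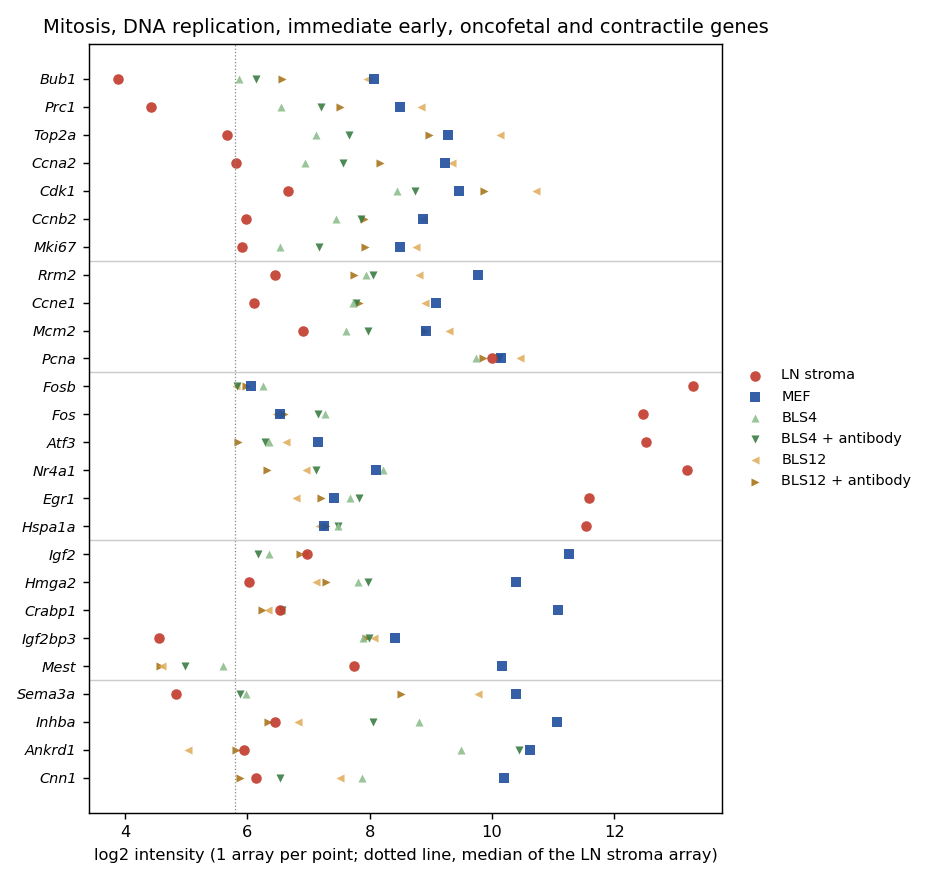
Log2 intensity of mitosis, DNA replication, immediate early, oncofetal and contractile genes (vertical axis) in each of the 6 arrays, 1 array a point; the dotted line is the LN stroma median. LN stroma is the left-most point for Bub1, Prc1 and Top2a and the right-most for Fosb, Fos and Nr4a1.

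Genes that hold cells out of division did not all mirror this. Of 19 with an entry, all kept, 6 were at least 4-fold higher and 3 lower, with a median of 1.12. Btg2, Klf2 and Klf4, higher by 3.22, 2.92 and 2.80, also stand in the stress list, and Txnip, an inhibitor of thioredoxin, differed by 2.55. The inhibitors encoded at the Ink4 locus were lower: Cdkn2a was at 7.03 against 9.55, with 9.24 and 9.15 in BLS4 and 8.93 and 8.90 in BLS12, and Cdkn2b at 7.04 against 9.87, with 10.09 and 9.41 in BLS4 and 7.74 and 7.52 in BLS12. For Cdkn2a all 5 cultured arrays lay above the fresh cells.

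Oncofetal and imprinted growth genes were lower in LN stroma. Of 22 with an entry, 21 were kept, 9 were at least 4-fold lower and 0 higher, with a median of -1.53. Igf2, the fetal growth factor, was at 6.97 in LN stroma, 11.25 in MEF and 6.36 and 6.17 in BLS4 and 6.92 and 6.86 in BLS12. Hmga2, a chromatin protein of embryonic cells, was at 6.04 against 10.39, with 7.81 and 7.97 in BLS4 and 7.13 and 7.29 in BLS12. Igf2bp3, an RNA-binding protein, was at 4.56 against 8.41, with 7.90 and 7.99 in BLS4 and 8.08 and 7.94 in BLS12. For Igf2 the lines lay with LN stroma, whereas for Igf2bp3 they lay near MEF and for Hmga2 in between. Crabp1 (-4.55), Igf2bp1 (-3.66), Mest (-2.43) and Meg3 (-2.37) were lower too, and Ndn (0.66), Peg3 (-0.49) and Dlk1 (-0.74) were under 2-fold apart. Binding proteins of the same axis divided, with Igfbp4 (3.07), Igfbp3 (2.85) and Igfbp6 (2.80) higher and Igfbp2 (7.80 against 12.12) lower.

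Positional identity genes gave list medians near 0, with members in both directions. Of 37 Hox genes with an entry, 27 were kept, 1 was at least 4-fold higher (Hoxd8, 8.05 against 5.87) and 0 lower, with a median of 0.02. All 6 kept genes of the Hoxc cluster were higher in LN stroma (median 0.82), while 6 of the 7 kept genes of paralogue groups 10 to 13, which pattern the distal limb and tail, were lower (median -0.98). Of these 7, Hoxa11, Hoxa13, Hoxd10 and Hoxd13 were kept through MEF alone. Hoxc10, the higher one, was kept through LN stroma alone. Their directions thus followed largely from the filter, at levels near background, and no positional pattern is read from them. Among 51 other mesenchymal patterning factors with an entry, 48 were kept, 5 were at least 4-fold higher and 2 lower, with a median of -0.11. At 2-fold, 12 of the 48 were higher and 11 lower, beside 10.2% and 12.1% over all genes kept, so the median near 0 joins opposite directions. Meox2 was the largest of them, at 9.96 in LN stroma, 4.49 in MEF and 4.43 and 4.12 in BLS4 and 4.30 and 4.23 in BLS12. Gata6 (2.57), Tcf21 (2.16), Foxf1 (2.14) and Nr2f1 (2.08) were higher, and Alx1 (-2.27) and Pax3 (-2.10), of head mesenchyme, neural crest and somites, were lower. Nkx2-3, known from spleen and gut-associated stroma, differed by 0.96, and Tlx1, needed for the spleen, lay below the array medians in both.

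Metabolic genes of growing cells were lower as well. All 15 cholesterol synthesis genes with an entry had a negative difference, 10 were at least 2-fold and 1 at least 4-fold lower, and the median was -1.19; Sc5d was at 7.66 against 9.72, with the lines between 9.96 and 10.14. Of 20 glycolysis and hypoxia genes, 7 were at least 2-fold lower and 1 was at least 4-fold higher, with a median of -0.47: Pgk1 (-1.98) and Pgam1 (-1.79) were lower, and Vegfa, the vascular growth factor, was higher (2.81).

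Genes of other cell types were read in both preparations. Of 20 lymphocyte genes with an entry, 2 lay at or above the LN stroma median, Jchain (7.92 against 3.20 in MEF) and Ighm (6.40 against 5.46), and both are genes of the B cell lineage. Cd3e (5.80), Cd79a (4.78) and Ms4a1 (4.88) lay at or below that median of 5.80, with summed intensities of the list of 911 in LN stroma, 521 in MEF and 510 to 577 in the lines. The class II genes above are also made by B cells and other leukocytes, and the part of such cells was not tested. Of 26 endothelial genes with an entry, 16 lay at or above the median in LN stroma and 9 in MEF; Tek (8.18 against 5.18), Glycam1, a mucin of high endothelial venules (2.68), and Plvap (2.48) were at least 4-fold higher. Kdr (-1.97), Flt1 (-1.82) and Flt4 (-1.76), the endothelial growth factor receptors, were higher in MEF, and the summed intensities were 2097 and 1807. The part of endothelial RNA in the mural genes above, and in Vcam1 and Madcam1, was not tested. Adhesion and surface genes as a list lay in both directions. Of 26 with an entry, 25 were kept, 3 were at least 4-fold higher and 4 lower, with a median of -0.53 and Alcam lowest (-3.92).

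Most macrophage transcripts read were higher in MEF. At or above the array median lay 16 of 24 myeloid genes in MEF and 3 in LN stroma, and 5 of the 16 kept were at least 4-fold lower in LN stroma and 1 was at least 4-fold higher. Over all 24 the median was -1.12 (-0.62 with levels under the array median set to it), and 8 differences were positive. The higher one was Cd14, a co-receptor for bacterial lipopolysaccharide (7.85 against 5.75). Lyz2, lysozyme, was at 5.73 in LN stroma, 10.36 in MEF and 8.54 and 7.84 in BLS4 and 7.82 and 9.63 in BLS12. Adgre1, the macrophage antigen F4/80, differed by -2.19 from a MEF level of 6.20, with 3.88 and 3.83 in BLS4 and 3.92 and 3.94 in BLS12. For Adgre1 MEF stood above all other arrays, while Lyz2 was also well above the median in both lines. The summed intensity of the myeloid list was 3673 in MEF and 1261 in LN stroma. C1qb, C1qc and C3ar1, the complement genes lower in LN stroma, moved with this list, and its part in them was not tested. Some neural and Schwann genes were higher in MEF as well (19 with an entry, 5 at least 4-fold lower in LN stroma, 0 higher), among them Nes, the intermediate filament nestin (5.03 against 9.17), Ncam1 (-3.54), Fabp7 (-2.96), Cdh19 (-2.92) and Sox2 (-2.60). Of 19 epithelial and mesothelial genes, 0 were at least 4-fold higher and 1 lower (Upk1b, -2.23). Xist, transcribed from the inactive X of female cells, was at 7.62 in MEF, 4.19 in LN stroma and between 4.19 and 4.42 in the lines, and the Y-linked Eif2s3y was above the median in both (7.61 in MEF, 7.99 in LN stroma). MEF thus held Xist together with a Y-linked transcript.

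Transcripts of digestive glands were high in the LN stroma array alone. Bpifa2, a secretory protein of the parotid gland, was at 11.84 in LN stroma, 4.23 in MEF and 4.49 and 4.62 in BLS4 and 4.41 and 4.50 in BLS12. Amy1, salivary amylase, was at 10.55 against 3.43, with 3.68 and 3.57 in BLS4 and 3.47 and 3.67 in BLS12. Cpb1, a pancreatic carboxypeptidase, was at 10.50 against 3.98, with 3.94 and 4.08 in BLS4 and 3.97 and 3.88 in BLS12. All 5 other arrays lay below their medians for these 3 genes. In lists drawn up after these values were seen, 19 of 23 pancreatic genes with an entry and 6 of 14 salivary genes were kept and at least 4-fold higher. Most of those kept passed the filter through LN stroma alone, so that these counts are a description. Over all members with an entry the medians were 3.18 and 1.04, and with levels under the array median set to it 2.31 and 0.18. The pancreatic list summed to 13031 in LN stroma, 800 in MEF and 774 to 1010 in the lines, and the salivary list to 6067, 372 and 378 to 424. Defining transcription factors of acinar cells, Ptf1a (4.85) and Bhlha15 (5.54), lay below the LN median, as did the mucins Muc5b (5.18) and Muc19 (4.20). These genes account for 3 of the 25 largest differences as measured and stand in none of the reticular lists above; their part in other differences was not tested.

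**Figure D5:**
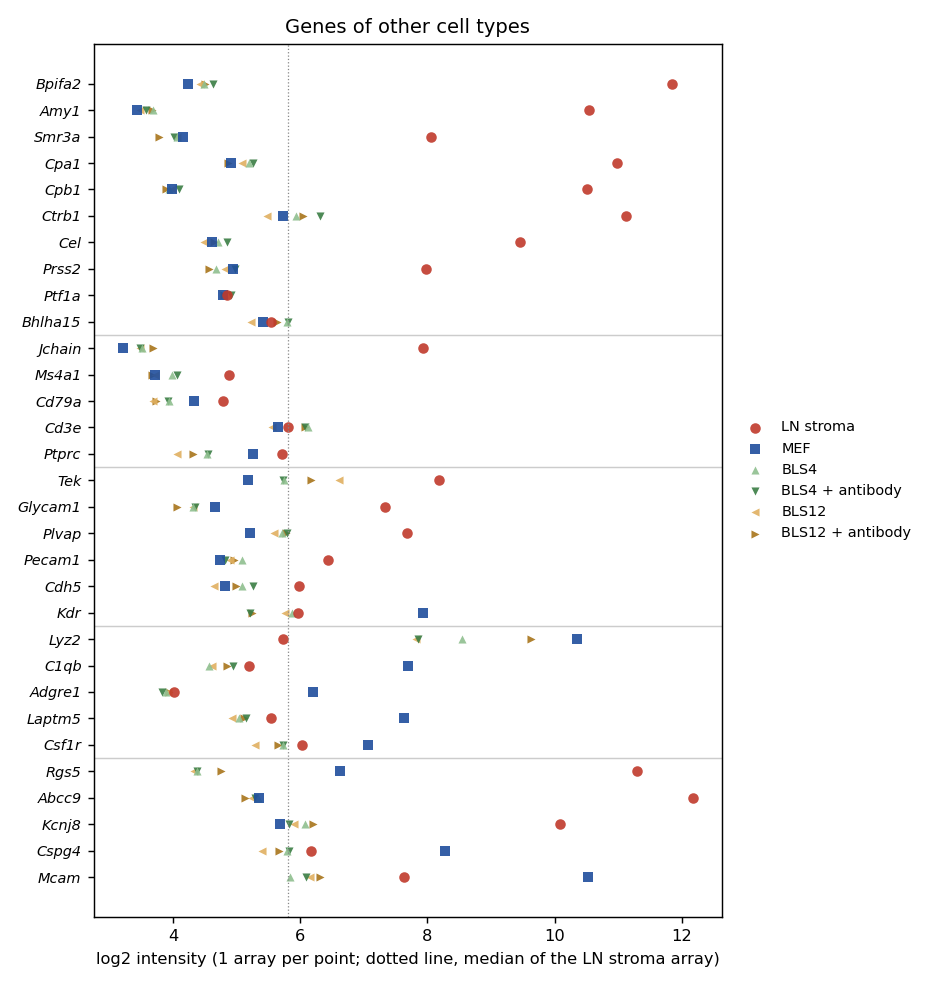
Log2 intensity of genes of exocrine glands, lymphocytes, endothelium, myeloid and mural cells (vertical axis) in each of the 6 arrays, 1 array a point; the dotted line is the LN stroma median. Bpifa2, Amy1 and Cpb1 are far to the right in LN stroma alone, Lyz2 and Adgre1 are highest in MEF, and Cd3e, Cd79a and Ms4a1 are at or left of the line in LN stroma.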

How the data were processed

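Total RNA of 6 preparations had been labelled and hybridised to Affymetrix whole-transcript arrays. The deposited values are 1 linear intensity for each array entry, which the authors computed in Affymetrix Expression Console 1.1, per the submitters' processing notes. Which summary algorithm, normalization and genome build they used is not given in the sources used here. As the smallest of these was 3.55, they were put on the log2 scale with no pseudocount. Of 35557 entries, 21789 belonged to 1 gene, 1621 to several and 12147 to none; only the first were used, and 999 genes with several took the brightest by mean log2 over the 6 arrays. Genes were kept where LN stroma or MEF lay at or above its array median. Gene names come from the platform's annotation, matched by Entrez ID to RefSeq for 21698 entries. Differences were counted at 4-fold and 2-fold, in pandas 2.3.3 and numpy 2.4.6 under Python 3.11.15, with the counting tested on simulated data. Arrays give no read counts; their number limits the precision. The named genes are the 25 with the largest difference in each direction, without predicted genes, and members of 42 gene lists, of which those with the largest differences come first. The comparison, its lists and its markers were chosen with earlier results of these data known, and 7 further lists after these values were seen. Promoters are RefSeq's, of GRCm38.p6, found for 10024 of the 12613 genes kept. List medians are over all members with an entry, kept or not.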

Additional observations from a re-analysis of the deposited data

Results flagged for a closer look

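Among array entries that are shared by several genes and entered no comparison, 68 of the 862 kept were at least 4-fold higher in LN stroma than in MEF (7.89%) and 16 at least 4-fold lower, and none of their genes is named here. Among entries with no gene, 57 of the 4372 kept were at least 4-fold higher in LN stroma (1.30%) and 43 lower.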

How the results depend on the processing

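Under each of the 8 alternative settings (centring each array, quantile normalization, no filter, a filter at the 75th percentile, levels under the median set to it, and 3 other choices of entry) the count of genes at least 4-fold higher stayed between 497 and 607, beside 585, and the lower count between 268 and 402, beside 370. The higher share of these genes was 58.2% to 65.0%, beside 61.3%. All 408 checks of 51 named genes kept direction and side of 4-fold. These were the 25 genes with the largest difference in each direction and the reticular markers. They were chosen for size and lay far from 4-fold, so the checks say little about genes close to it. Their order was not kept, as the report gives. The printed list medians, over all members with an entry, do not depend on the filter; under the 6 other settings 285 of their checks stayed within 0.5 log2 units and 9 moved further, all with levels under the median set to it, where the largest moves were those of the guanylate-binding list (3.49 to 2.25), the pancreatic list (3.18 to 2.31), the reticular markers (7.09 to 6.21) and the salivary list (1.04 to 0.18). Medians near 0 changed sign under some settings: those of the Hox genes (-0.04 centred, -0.01 by quantile), patterning factors (0.06 with the raised levels), epithelial genes (0.06), desmosome genes (0.03) and muscle, cartilage and bone genes (0.01 by quantile, 0.06). Medians over kept members alone followed the filter more: 356 checks stayed and 35 moved, 16 of them at the 75th percentile, where complement went from 4.18 to 5.77, patterning factors from -0.09 to 1.82, epithelial genes from -0.01 to -1.65 and endothelial genes from 0.64 to -1.82, and 8 with no filter, where complement went to 0.67. Leaving out the stress and other cell type lists, an alternative chosen after seeing the data, gave 534 and 365. No paired analysis was possible because each group had 1 array and no test, and for the same reason no replicate could be left out. Levels near background bound no fold.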

Other observations

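Further gene groups were read in lists drawn up after their values were seen, so that their counts describe the choice as much as the cells. Enzymes that oxidise or conjugate small molecules were higher in LN stroma: of 29, all kept, 23 were at least 4-fold higher and 3 lower, with a median of 3.09 log2 units. Adh1, an alcohol dehydrogenase, was at 12.25 in LN stroma, 5.69 in MEF and 6.35 and 5.66 in BLS4 and 9.02 and 7.72 in BLS12. Fmo2, a flavin monooxygenase, was at 10.77 against 4.75, and Cyp2e1, a cytochrome P450, at 9.73 against 4.02. Gsto1 (-3.62) was in the other direction. Genes known as targets of p53 were lower for most members (19 genes, 8 at least 4-fold lower, 0 higher, median -1.72), among them Mdm2, the p53 ubiquitin ligase (7.89 against 10.49, lines between 9.88 and 10.36), Ccng1 (-2.53) and Tnfrsf10b (-3.31). Genes of serine synthesis and amino acid supply were lower too (21 genes, 10 at least 4-fold lower, 2 higher, median -1.60): Psat1 was at 7.37 against 10.20 and the transporter Slc38a1 at 5.44 against 9.89, while Slc1a5 (2.99) and Slc7a11 (2.11) were higher. Of 14 guanylate-binding, p200 and Schlafen genes with an entry, 12 were kept and 10 were at least 4-fold higher, led by Ifi205 (5.80) and Slfn5 (5.27). Of 10 desmosome genes, 4 were at least 4-fold higher and 2 lower: the cadherins Dsc3 (11.54 against 4.37, lines between 4.08 and 4.21) and Dsc2 (3.72) were higher, and the plaque protein Pkp2 (-3.54) was lower.

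Genes at least 4-fold higher in LN stroma were in part neighbours on the chromosome. In RefSeq order, 16 runs of 3 or more adjacent kept genes were all at least 4-fold higher and held 51 genes, and 0 runs were all at least 4-fold lower. Genes not kept were skipped, so members of a run need not be direct neighbours. No expected number of runs was computed, and fewer kept genes were lower (2.93%) than higher (4.64%) at this size. The higher runs included the complement proteases C1ra, C1s1 and C1s2 (5.47, 5.97 and 3.22), the chemokines Ccl2, Ccl7 and Ccl11, the transporters Abca8b, Abca8a, Abca9 and Abca6 (3.22, 7.65, 4.69 and 3.71), and Gbp5, Gbp7 and Gbp3. Many of these runs are families of similar sequence, whose entries may share signal. Others are not, or only in part. Sostdc1, Meox2 and Agmo (2.92, 5.48 and 5.44) are unrelated genes. Dpp4 and Fap (2.50 and 4.59) are related proteases, and their neighbour Ifih1 (2.32) is not of that family.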
